A study of Bos grunniens with 18 samples.

Results

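Hemoglobin chain genes were examined in the whole blood of female yaks (Bos grunniens) at 3 reproductive stages: anestrus, or Y-A, estrus, or Y-E, and pregnancy, or Y-P. The members were all genes of the deposited expression table whose Gene Ontology column holds the term for the hemoglobin complex, and 6 of the 20607 genes in the table met this rule. By name or KEGG orthology entry, 3 of them belong to the alpha family and 1 to the beta family. The other 2 were given no class because neither their names nor their annotation state one. The alpha-family members were ENSBGRG00000014632 (entered as hemoglobin alpha, and called the alpha gene here), HBM (hemoglobin subunit mu, ENSBGRG00000014714) and HBQ1 (hemoglobin subunit theta 1, ENSBGRG00000014579). The beta-family member was ENSBGRG00000011277, entered as hemoglobin beta and called the beta gene here. The genes with an open class were ENSBGRG00000014765 and ENSBGRG00000014886. None of the 6 members was named as a fetal or embryonic hemoglobin chain.

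RNA was sequenced from 18 libraries of whole blood, 6 for each stage. The animals were adult yaks of 4 to 8 years from 1 artificially inseminated herd, and per the study's methods 6 cows were followed through the stages. Estrus was synchronised with a progesterone pessary, a prostaglandin analogue and gonadotropin-releasing hormone. The study's methods do not say whether the Y-A blood was drawn before or after this treatment. No genotype or breed line was given for any group, and neither the day of pregnancy nor the dates of sampling are given in the sources used here, so stage and time of sampling cannot be told apart. The blood was drawn into EDTA tubes and lysed in TRIzol LS as whole blood, so red cells, white cells and platelets were measured together, and the protocols name a poly(A) selection and no step that removes globin transcripts.

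Hemoglobin carries oxygen in red blood cells and is built from chains of the alpha family paired with chains of the beta family, each holding a heme group. The chains are encoded in separate alpha and beta gene clusters on different chromosomes, and in mammals embryonic chains are replaced by fetal or adult ones during development. Mature red cells of mammals have no nucleus, and hemoglobin transcripts in blood come mainly from reticulocytes, the youngest red cells in circulation, which still hold messenger RNA. Whole blood libraries cannot tell fewer reticulocytes from less hemoglobin RNA in each reticulocyte.

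In the coordinates of the deposited table (Ensembl identifiers of the yak genome), 5 of the 6 genes lie in 1 run on the minus strand of chromosome 26 between LUC7L and NPRL3, genes that flank the alpha cluster of other mammals too. HBQ1 comes first from the LUC7L side, at chr26:47730807-47731550. The alpha gene follows at chr26:47734389-47738056, HBM at chr26:47739596-47740288, ENSBGRG00000014765 at chr26:47741052-47742172 and ENSBGRG00000014886 at chr26:47758549-47759594, next to NPRL3. The 2 genes of open class are thus those nearest to NPRL3, which is the end of the cluster that holds the embryonic zeta chain in other mammals, but position alone does not class them. The beta gene lies apart on the plus strand of chromosome 13, at chr13:37179477-37180986. The alpha gene spans 3668 bp with 2 transcripts, and a RefSeq annotation of another yak assembly (Bosgru_T2T1.0) lists 2 protein-coding genes between HBQ1 and HBM where the deposited table has 1. The count of the alpha gene may therefore join near-identical copies, which cannot be told apart here.

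The libraries held 30247267 to 48401076 counts each, with a median of 33920959.5, so that 3 counts, the upper limit that a count of 0 allows, correspond to 0.0620 to 0.0992 CPM (counts per 1000000 counts of the library, here before normalization). Intervals and limits of this kind cover counting error only. Markers of blood cell types were present in every stage. The summed level of 6 neutrophil markers ran from 3528 to 13601 CPM, that of 5 B cell markers from 368 to 1761 CPM, that of 4 monocyte markers from 432 to 1799 CPM, that of 3 T cell markers from 434 to 988 CPM and that of 3 platelet markers from 81.4 to 164 CPM. For hemoglobin, Y-E replicate 6 stood apart from the other Y-E libraries. Its hemoglobin share, 8.36% of its counts (95% Wilson interval 8.35% to 8.36%), lay within the Y-A range, while the other 5 Y-E libraries held at most 0.713%. It also has no entry in the study's own mapping and expression tables, for a reason that is not given in the sources used here. The comparisons are given with all 18 libraries and with the 17 without it. Leaving out each library in turn was part of the plan, but this one is singled out by its hemoglobin level, the quantity under test, so the adjusted p-values without it are descriptions and no independent support.

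The alpha gene had the most counts of all members, 19319346 over the 18 libraries. Its level, as CPM after TMM normalization, had a lowest value of 27319, a median of 52829 and a highest value of 171820 CPM in Y-A. In Y-E the values were 776, 4443 and 81269 CPM, and in Y-P they were 225, 397 and 3221 CPM. All 6 Y-P libraries lay below all Y-A libraries, whereas the highest Y-E value, that of replicate 6, lay inside the Y-A range. Without it the highest Y-E value was 6762 CPM, and Y-E and Y-A did not overlap. Y-E replicate 6 was singled out by its hemoglobin level, so this separation is a description and no independent support. Overlap of stages, here and below, was examined for the members only. How many of all tested genes do not overlap between stages was not counted. By FPKM, which scales for gene length, the alpha gene was the most abundant gene of the blood in every Y-A library, ranked between 1 and 112 in Y-E, and between 8 and 409 in Y-P.

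The beta gene followed the same order of stages. Its lowest, median and highest levels were 1529, 5465 and 18622 CPM in Y-A. The Y-E values were 63.8, 269 and 7984 CPM, and the Y-P values 16.5, 34.0 and 236 CPM. Y-P and Y-A did not overlap, and 5 of 6 Y-E libraries lay below all Y-A libraries, with replicate 6 as the exception. Y-P and Y-E overlapped, since 4 of 6 Y-P libraries lay below all Y-E libraries and replicates 2 and 6 did not. Its FPKM rank among all genes ran from 2 to 30 in Y-A. It ran from 2 to 1303 for Y-E libraries and from 260 to 4775 for Y-P libraries.

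**Figure D1:**
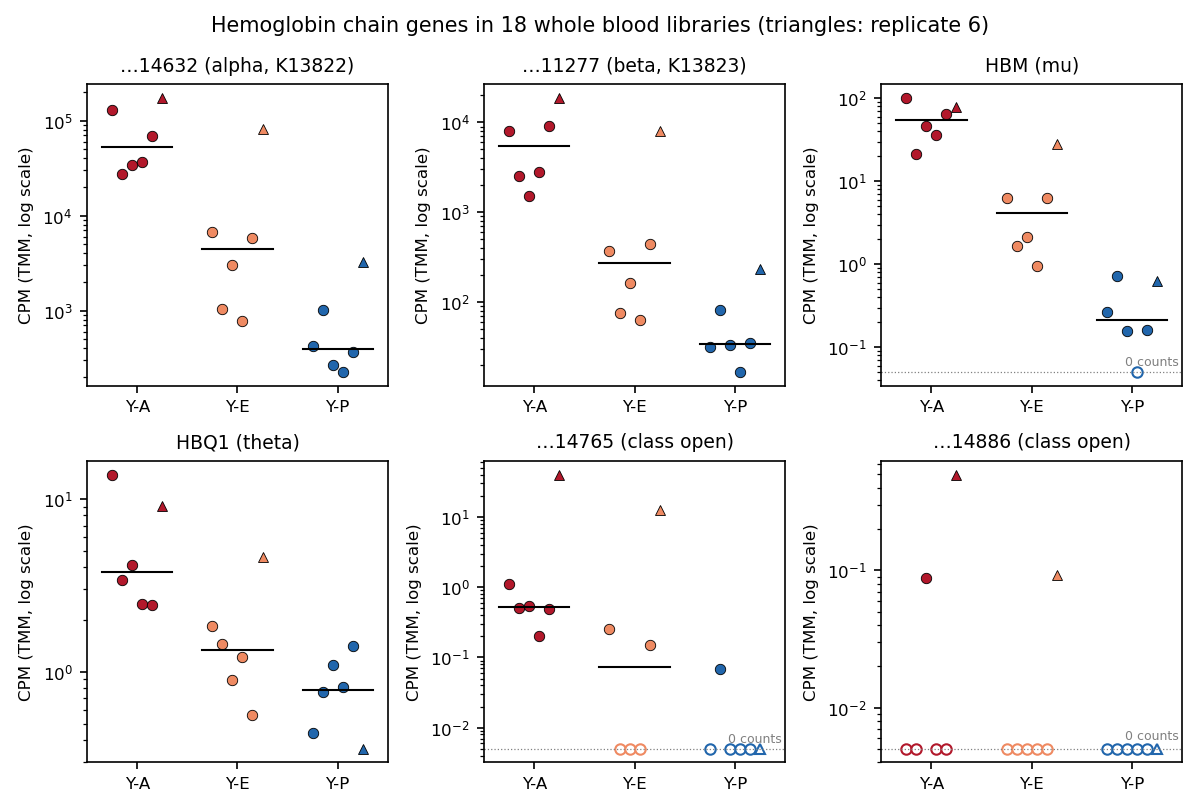
Level of each of the 6 hemoglobin chain genes in the 18 libraries, as TMM-normalized CPM on a log axis; points are libraries, triangles replicate 6 of each stage, lines stage medians, and open symbols on the dotted line libraries with 0 counts. The alpha gene falls from a median of 52829 CPM in Y-A to 397 CPM in Y-P, and replicate 6 is the highest Y-E library for every gene.

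HBM encodes mu globin, an alpha-like gene that is transcribed in erythroid cells and whose protein has no established place in circulating hemoglobin. In Y-A its lowest, median and highest levels were 21.6, 55.2 and 100 CPM. The Y-E values were 0.941, 4.17 and 27.8 CPM, and the Y-P values 0, 0.214 and 0.714 CPM. HBM was the member whose 3 stages separated most fully, since every Y-P library lay below every Y-E library, and only Y-E replicate 6 overlapped with Y-A. The number of all tested genes that separate Y-P from Y-E in this way was not counted. In Y-P replicate 4 no HBM read was counted, and 3 counts would correspond to 0.0883 CPM of that library before normalization. The Y-P values rest on 0 to 31 counts per library and are correspondingly coarse.

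HBQ1 encodes theta globin, another alpha-like gene of low expression whose product has no settled function. In Y-A its lowest, median and highest levels were 2.44, 3.78 and 13.8 CPM. The Y-E values were 0.562, 1.33 and 4.58 CPM, and the Y-P values 0.357, 0.786 and 1.41 CPM. Y-A and Y-P did not overlap, but the Y-E and Y-P values did, with 2 of 6 Y-P libraries below all Y-E libraries. The stage medians of HBQ1 differed 4.81-fold between Y-A and Y-P, against 133-fold for the alpha gene, 161-fold for the beta gene and 259-fold for HBM.

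ENSBGRG00000014765, next to HBM, had 0 counts in 8 of the 18 libraries. Its counts in Y-A were 39, 18, 18, 6, 16 and 1124 in replicates 1 to 6. In Y-E they were 8, 0, 0, 0, 5 and 545, and in Y-P a single library, replicate 2, had 3 counts. Replicate 6 thus held 1124 of the 1221 Y-A counts and 545 of the 558 Y-E counts, while Y-P replicate 6 had none. Pooled over the libraries of a stage, its CPM was 455 times higher in Y-A than in Y-P (exact interval 155 to 2210), and 42.8 times higher (14.2 to 211) without Y-A replicate 6. These intervals treat the pooled counts as 1 sample and leave out the spread between libraries. ENSBGRG00000014886, nearest to NPRL3, had 21 counts in all: 14 in Y-A replicate 6, 4 in Y-E replicate 6 and 3 in Y-A replicate 3. It did not pass the filter on low counts and was not tested, so 5 of the 6 members were tested.

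For the comparison of estrus with anestrus (Y-E vs. Y-A), all 5 tested genes had lower fitted values in Y-E, but none passed both thresholds, an adjusted p below 0.05 and a log2 fold change of 1 or more in size, with all 18 libraries (edgeR quasi-likelihood test, Benjamini-Hochberg adjustment over the 14508 genes tested). The background was 0.0138% of tested genes called lower and 0% called higher. The log2 fold changes were -2.25 (SE 0.99, adjusted p = 0.736) for the alpha gene, -2.23 (SE 1.06, 0.796) for the beta gene, -2.93 (SE 0.69, 0.280) for HBM, -1.74 (SE 0.52, 0.423) for HBQ1 and -1.70 (SE 1.44, 0.999) for ENSBGRG00000014765. At an unadjusted p under 0.05 there were 4 of the 5, beside 900 of the 14508 genes tested. DESeq2 called none of the 2 members for which it gave an adjusted p, and limma on log2(FPKM + 1) called 1. Leaving out Y-E replicate 6 changed this: the beta gene (log2 fold change -4.99, SE 0.88, edgeR adjusted p = 0.0232), the alpha gene (-4.48, SE 0.86, 0.0444) and HBM (-4.06, SE 0.61, 0.00731) then passed, which is 3 of 5 members beside 0.102% of all tested genes called lower. HBQ1 (-2.30, adjusted p = 0.0668) and ENSBGRG00000014765 (-6.41, adjusted p = 0.105) did not pass.

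The replicate numbers were also used as a block, since the same cows were sampled in each stage. With this block and all 18 libraries, the same 3 genes passed in Y-E vs. Y-A, at log2 fold changes of -3.89 for the beta gene (edgeR adjusted p = 0.0275), -3.68 for the alpha gene (0.0275) and -3.65 for HBM (0.0112), beside 0.062% of all tested genes called lower. Each of the 5 tested genes was lower in Y-E than in the Y-A library of the same number in 6 of 6 pairs. The pair counts here and below were made for the members only. How many of all tested genes reach 6 of 6 was not counted, and the 5 genes share their libraries, so they are not separate results.

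For the comparison of pregnancy with anestrus (Y-P vs. Y-A), all 5 tested genes fell in Y-P, beside 1.09% of all tested genes called lower and 0.345% called higher. HBM fell most among the members of settled class, at a log2 fold change of -7.48 (SE 0.89, edgeR adjusted p = 0.000586). The values were -6.62 for the beta gene (SE 1.29, adjusted p = 0.00778), -6.41 for the alpha gene (SE 1.20, 0.00669) and -2.85 for HBQ1 (SE 0.55, 0.00761). ENSBGRG00000014765 had a fitted log2 fold change of -8.83 (SE 2.27, adjusted p = 0.0303), which rests on 3 counts in Y-P. Without Y-E replicate 6, all 5 also passed (adjusted p from 2.76e-05 for HBM to 0.00747 for ENSBGRG00000014765), beside 1.21% of tested genes called lower. Without Y-A replicate 6, the value of ENSBGRG00000014765 was -5.20 and no longer passed (adjusted p = 0.102), while the other 4 members passed. Its call was also lost without any 1 of Y-P replicates 2 to 5. In same-numbered pairs each of the 5 genes was lower in Y-P in 6 of 6.

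For the comparison of pregnancy with estrus (Y-P vs. Y-E), 4 of the 5 tested genes fell with all 18 libraries, beside 2.22% of tested genes called lower and 0.448% called higher. The log2 fold changes were -4.54 for HBM (SE 0.82, edgeR adjusted p = 0.00167), -4.39 for the beta gene (SE 1.16, 0.0170), -4.16 for the alpha gene (SE 1.08, 0.0151) and -7.13 for ENSBGRG00000014765 (SE 2.23, 0.0383). HBQ1 had a value of -1.11 (SE 0.53, adjusted p = 0.168). Without Y-E replicate 6 only HBM passed of the 5, at -3.42 (adjusted p = 0.00222), beside 2.12% of tested genes called lower. The other values were then -1.93 for the alpha gene (adjusted p = 0.0877), -1.63 for the beta gene (0.147), -0.54 for HBQ1 (0.512) and -2.42 for ENSBGRG00000014765 (0.494). On the same 17 libraries with the replicate numbers as a block, 3 of 5 passed, beside 2.56% of tested genes called lower: HBM at -3.38 (edgeR adjusted p = 0.00205), the alpha gene at -2.53 (0.00854) and the beta gene at -2.15 (0.0108). The call of ENSBGRG00000014765 was also lost when any 1 of the 6 Y-P libraries was left out. In same-numbered pairs, the alpha gene and HBM were lower in Y-P in 6 of 6, the beta gene in 5 and HBQ1 in 4. ENSBGRG00000014765 was lower in Y-P in 3 pairs and higher in 1, and the other 2 pairs were both at 0. The 3 comparisons share the libraries of each stage and are not independent of one another.

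**Figure D2:**
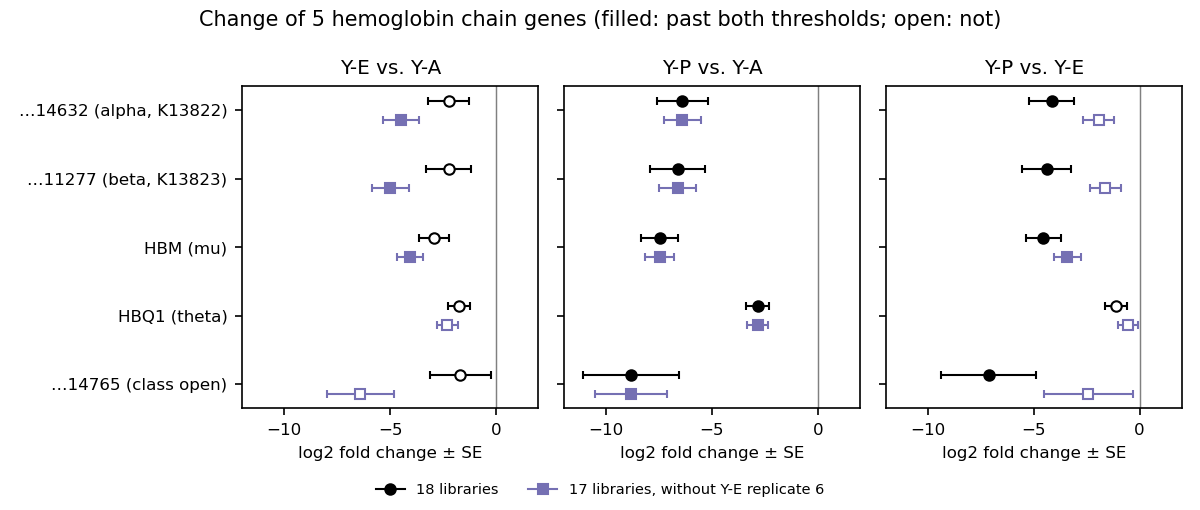
Fitted log2 fold changes (edgeR) with their standard errors for the 5 tested genes in the 3 comparisons, with all 18 libraries (circles) and without Y-E replicate 6 (squares); filled symbols passed both thresholds and open ones did not. In Y-P vs. Y-A all 5 passed in both sets. Leaving out Y-E replicate 6 changed the number from 0 to 3 in Y-E vs. Y-A, and from 4 to 1 for pregnancy against estrus.

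Together the 6 genes took up a lowest, median and highest share of 3.10%, 5.64% and 16.7% of the counts in Y-A. In Y-E the shares were 0.0899%, 0.452% and 8.36%, and in Y-P they were 0.0272%, 0.0463% and 0.376%. Y-A and Y-P did not overlap. Without Y-E replicate 6 the Y-E median was 0.294%. The highest library was replicate 6 in each stage, and the Y-P value of this replicate had a Wilson interval of 0.374% to 0.378%.

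The balance of alpha-family to beta-family transcripts was compared per length, as the summed FPKM of the alpha gene, HBM and HBQ1 over the FPKM of the beta gene. In Y-A the lowest, median and highest ratio was 5.34, 8.54 and 16.0. In Y-E it was 7.23, 9.67 and 13.1, and in Y-P it was 5.94, 9.14 and 9.76. The ranges of the 3 stages overlapped, although the medians of the alpha and beta genes differed 133-fold and 161-fold between Y-A and Y-P. Within same-numbered pairs the ratio was lower in Y-E than in Y-A in 2 and higher in 4, and the same split was seen for Y-P against Y-A. In every library the alpha gene had the highest FPKM of the members and the beta gene the next, and the alpha gene held 88.2% to 95.6% of the hemoglobin counts. How the alpha gene model handles near-identical copies enters all of these ratios alike, so their absolute size is uncertain.

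**Figure D3:**
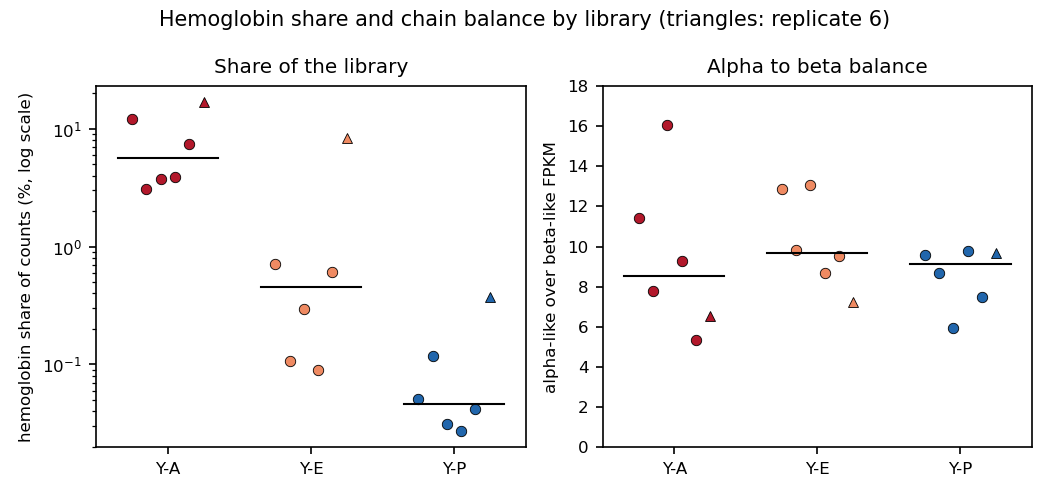
Left, share of a library's counts in the 6 hemoglobin chain genes (percent, log axis); right, ratio of alpha-family to beta-family FPKM (linear axis from 0); points are libraries, triangles replicate 6 and lines stage medians. The median share runs from 5.64% in Y-A to 0.0463% in Y-P, while the ratio has medians of 8.54, 9.67 and 9.14 with overlapping ranges.

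The minor chains were also set against the alpha gene, as counts per 1000000 counts of the alpha gene. This value can move with the alpha gene alone, so it is not free of the total hemoglobin RNA. For HBM the lowest, median and highest values of Y-A were 451, 862 and 1342. Those of Y-E were 341, 994 and 1594, and those of Y-P were 0, 510 and 709. Replicate 6 had the lowest value in Y-A and in Y-E. For HBQ1 the Y-A values were 35.4, 86.1 and 125, the Y-E values 56.4, 284 and 1570, and the Y-P values 111, 2325 and 3998. HBQ1 was thus higher relative to the alpha gene in 5 of 6 Y-P libraries than in any Y-A library. These values went with a low hemoglobin share. In Y-E the highest was that of replicate 4 (share 0.0899%) and the lowest that of replicate 6 (8.36%). The lowest Y-P value was that of replicate 6 (0.376%). The Y-P values rest on 13 to 70 HBQ1 counts per library. By FPKM, HBM stood above HBQ1 in 6 of 6 Y-A libraries, in 5 of 6 Y-E libraries and in 2 of 6 Y-P libraries.

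ENSBGRG00000014765 had, on the same scale, 5.47 to 18.4 in 5 Y-A libraries and 233 (exact interval 219 to 247) in Y-A replicate 6. Y-E replicate 6 had 154 (142 to 168), and the measured values of the other Y-E libraries were at most 37.4. Those with 0 counts, replicates 2, 3 and 4, allow up to 93.7, 33.0 and 107 (3 counts). In Y-P replicate 6 there were 0 of 117187, which allows up to 25.6 (3 counts). Thus replicate 6 differed from its group in this chain in Y-A and Y-E, beyond counting error, even per alpha-gene count. The other Y-P libraries with 0 counts allow up to 164 to 349, so a value like that of Y-E replicate 6 was not detectable there, and Y-P replicate 2, with 3 counts, had 68.6 (14.1 to 200). ENSBGRG00000014886 showed 2.90 in Y-A replicate 6 (1.58 to 4.86) and 1.13 in Y-E replicate 6 (0.309 to 2.90).

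**Figure D4:**
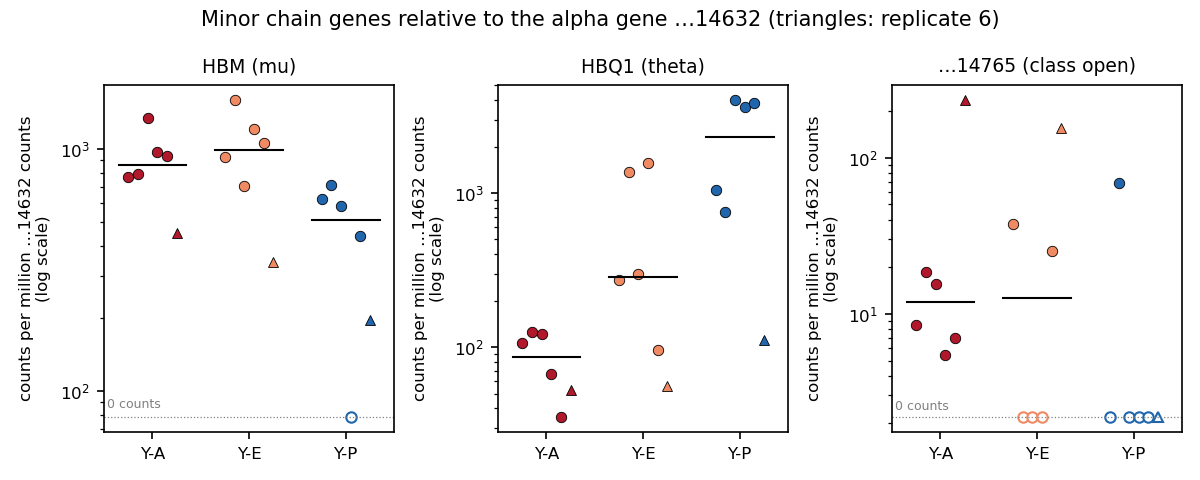
HBM, HBQ1 and ENSBGRG00000014765 as counts per 1000000 counts of the alpha gene in each library (log axes); points are libraries, triangles replicate 6, lines stage medians and open symbols libraries with 0 counts. HBQ1 has medians of 86.1 in Y-A and 2325 in Y-P, and ENSBGRG00000014765 is highest in replicate 6 of Y-A (233) and Y-E (154).

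Reticulocyte markers moved with the hemoglobin genes. Of 7 markers, 4 were listed under their symbols: ALAS2, the erythroid enzyme that starts heme synthesis, SLC4A1, the band 3 anion exchanger of the red cell membrane, HEMGN, an erythroid nuclear protein, and KEL, the Kell blood group protein. Their summed level in Y-A had a lowest, median and highest value of 398, 1504 and 10872 CPM. The Y-E values were 90.0, 142 and 4610 CPM, and the Y-P values 37.8, 62.2 and 124 CPM. Replicate 6 was the highest library in each stage. None of the 4 passed in Y-E vs. Y-A (edgeR, and 0 had an unadjusted p under 0.05). All 4 fell in Y-P vs. Y-A, beside 1.09% of all tested genes called lower. ALAS2, SLC4A1 and HEMGN fell in Y-P vs. Y-E, beside 2.22% called lower. Without Y-E replicate 6, ALAS2 passed in Y-E vs. Y-A, beside 0.102% of all tested genes called lower. All 4 had an unadjusted p under 0.05 there (edgeR, beside 1235 of 14653 genes tested). None of the 4 then passed in Y-P vs. Y-E (0 at an unadjusted p under 0.05). With the replicate block and all 18 libraries, none passed in Y-E vs. Y-A, but all 4 had an unadjusted p under 0.05 (edgeR, beside 1227 of 14508 genes tested). All 4 passed in Y-P vs. Y-E with the block, beside 2.41% of all tested genes called lower. KEL, the lowest of them, had a median of 0 CPM in Y-E and in Y-P. The part of reticulocyte number in the hemoglobin differences was not tested.

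The sum of hemoglobin CPM over the sum of reticulocyte marker CPM was not constant. ALAS2 made up most of the marker sum, with medians of 1451 (Y-A), 135 (Y-E) and 60.5 CPM (Y-P). The log2 fold changes in Y-P vs. Y-A were -5.33 for ALAS2, -5.98 for HEMGN, -6.42 for KEL and -7.21 for SLC4A1, so the ratio depends on the marker. The lowest, median and highest value of this ratio in Y-A was 17.5, 47.7 and 90.4. The Y-E values were 6.32, 25.1 and 47.6, and the Y-P values 5.20, 7.86 and 28.0. Y-A replicate 6, with the most hemoglobin of all libraries, had the lowest value of its stage, and Y-P replicate 6 the highest of its own. Markers of the other cell types were tested in the same fit. In Y-E vs. Y-A none of them passed in edgeR (2 neutrophil markers had an unadjusted p under 0.05, beside 900 of the 14508 genes tested). The neutrophil markers had a median log2 fold change of 0.62 there, and of 0.82 without Y-E replicate 6, when MMP9 passed as higher in Y-E (1.64, adjusted p = 0.0444). In Y-P vs. Y-A, none of the neutrophil, monocyte, T cell and B cell markers passed in edgeR. At an unadjusted p under 0.05 there were 1, 1, 3 and 1 of them, beside 3299 of the 14508 genes tested. Of the 3 platelet markers, GP1BA and TREML1 fell, beside 1.09% of all tested genes called lower. ITGA2B, the most abundant of them, did not pass (-0.41, edgeR adjusted p = 0.0556). GP1BA had a Y-P median of 0.0786 CPM, near the level of 3 counts. The T cell markers CD3G (log2 fold change 0.73, edgeR adjusted p = 0.0139) and CD5 (0.51, adjusted p = 0.0198) were higher in Y-P below the fold threshold. In Y-P vs. Y-E, the same 2 platelet genes and 4 of 6 neutrophil markers (CSF3R, S100A9, S100A12 and MMP9) fell. The share of all tested genes called lower was 2.22%. ITGA2B did not pass there (-0.26, edgeR adjusted p = 0.182). CD3G (0.88, edgeR adjusted p = 0.00173) and CD5 (0.43, adjusted p = 0.0206) were again higher below the fold threshold.

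**Figure D5:**
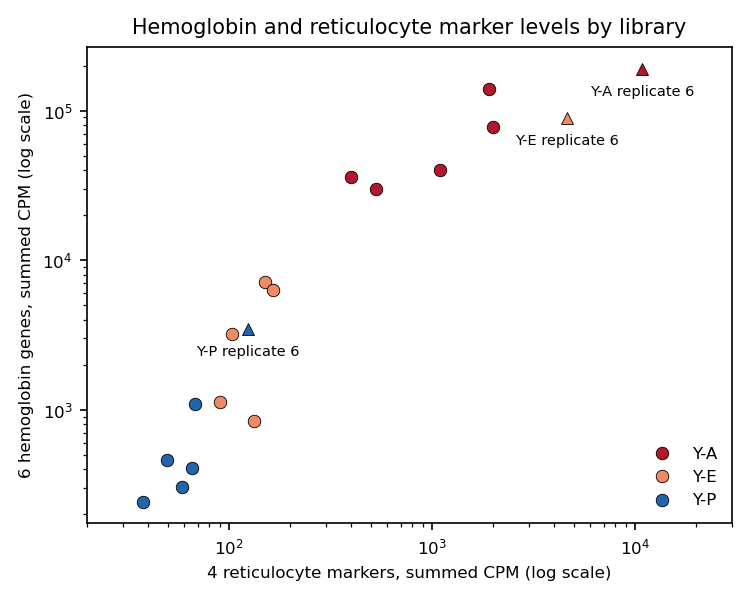
Summed CPM of the 6 hemoglobin genes (vertical) against summed CPM of 4 reticulocyte markers (horizontal) in the 18 libraries, both on log axes; colours mark the stages and triangles replicate 6. Y-P libraries lie at the lower left (markers 37.8 to 124 CPM), Y-A libraries at the upper right (398 to 10872 CPM), and Y-E replicate 6 among the Y-A libraries.

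A list of 30 genes that regulate, assist or clear hemoglobin was examined in the same fit, and 24 were listed under their symbols and 21 tested. AHSP, the chaperone of free alpha chains, was not among those listed. In Y-E vs. Y-A none of the 21 passed in edgeR (3 at an unadjusted p under 0.05, beside 900 of the 14508 genes tested). In Y-P vs. Y-A 3 fell and none rose, beside 1.09% of all tested genes called lower and 0.345% called higher. In Y-P vs. Y-E 2 fell and none rose, beside 2.22% called lower and 0.448% called higher. The median log2 fold changes of the list were -0.19, -0.41 and -0.26 in these comparisons, against -0.01, 0.03 and 0.04 over all tested genes. Without Y-E replicate 6 the numbers called lower were 1, 3 and 1, beside 0.102%, 1.21% and 2.12% of all tested genes. With the replicate block and all 18 libraries they were 1 (KLF1), 3 and 3 (KLF1, NFE2 and LRP1), beside 0.062%, 1.31% and 2.41%.

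Among the 12 regulators of globin genes, 10 were tested. KLF1, the erythroid factor that activates the adult beta gene, had stage medians of 8.02 CPM (Y-A), 1.43 CPM (Y-E) and 1.23 CPM (Y-P), and fell in Y-P vs. Y-A (log2 fold change -3.83, edgeR adjusted p = 0.0149). In Y-E vs. Y-A its value was -1.72 (adjusted p = 0.739), and it passed without Y-E replicate 6 (-3.27, adjusted p = 0.0472) and with the replicate block (-2.19, adjusted p = 0.0271). In Y-P vs. Y-E it passed with the block only, at -1.10 (adjusted p = 0.0499), of these 3 fits. SOX6, a factor that restrains embryonic globin genes, fell from a median of 4.84 CPM in Y-A to 0.115 CPM in Y-P, near the level of 3 counts (-5.49, adjusted p = 0.0325). NFE2, which binds globin control regions and is also expressed in myeloid cells and megakaryocytes, fell in Y-P vs. Y-E (-1.07, adjusted p = 0.00160). GATA1, the master erythroid factor, had a log2 fold change of -0.81 in Y-P vs. Y-A and did not reach the fold threshold. BCL11A and ZBTB7A, repressors of the fetal beta-family genes, had values of -0.07 and -0.21 in Y-P vs. Y-A and did not pass.

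Of the genes that guard or clear hemoglobin, BLVRB, a reductase abundant in red cells, fell in Y-P vs. Y-A (log2 fold change -2.78, edgeR adjusted p = 0.00778), and LRP1, the receptor for heme bound to hemopexin, fell in Y-P vs. Y-E (-1.09, adjusted p = 0.0167). Without Y-E replicate 6, LRP1 had a value of -0.96 and missed the fold threshold. CD163, the macrophage receptor for hemoglobin bound to haptoglobin, and HMOX1, the inducible heme oxygenase, had values of -0.41 and -0.44 in Y-P vs. Y-A and did not pass. EIF2AK1, the kinase that restrains globin translation when heme is short, had a value of 0.00 in Y-P vs. Y-A.

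The pattern over libraries was compared between the members and with all other tested genes, by Pearson's r of log2(CPM + 1). These values are descriptions, since the libraries fall into stages and share their hemoglobin total. Over the 18 libraries, r was 0.99 between the alpha and beta genes, 0.97 between the alpha gene and HBM, and 0.81 between the alpha gene and HBQ1. With the stage means taken away the values were 0.97, 0.91 and 0.45. ENSBGRG00000014765 reached 0.58 to 0.68 with the other members over the 18 libraries. The 4 other genes most like the mean of the tested members were ALAS2 (r = 0.97), MARCHF2, a membrane-bound ubiquitin ligase (0.97), PGAP6, a GPI-anchor phospholipase (0.96), and ARG1, arginase (0.96). With the stage means taken away r was 0.93, 0.93, 0.87 and 0.89 for these 4, and the highest value was that of HEMGN (0.94). PGAP6 lies on chromosome 26 like the alpha cluster, at chr26:47554541-47565129.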

How the data were processed

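Whole blood RNA of 18 libraries, 6 per stage, was sequenced as paired reads of 150 bp. Per the submitters' processing notes and the study's methods, the authors trimmed the reads with cutadapt 1.9, aligned them with HISAT2 2.2.1 to the Bos grunniens genome (v101), assembled transcripts with StringTie 2.1.6 and estimated expression with StringTie and ballgown, which gave the deposited FPKM values. The authors also deposited whole-number counts per gene that were not normalized, and how these were made is not given in the sources used here. Libraries were assigned to stages by their titles. None of the per-sample columns was left unmapped, and no 2 libraries held identical values.

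The counts were tested with edgeR 4.0.16 in R 4.3.3 (TMM normalization, filterByExpr by stage, quasi-likelihood fit over the 3 stages, two-sided, Benjamini-Hochberg adjustment within a comparison), and calls needed an adjusted p below 0.05 and a log2 fold change of 1 or more in size, the thresholds of the study. The test was first run on simulated data. Levels are TMM-normalized CPM, levels of several genes are compared as the authors' FPKM, and ratios and shares carry no test. Members were set by the Gene Ontology term, partner and marker genes by lists, and the most similar genes by Pearson's r. Of these marker and similar genes, 2 are not reported here. The members and lists were chosen with earlier results of these data known. Alternatives were DESeq2 1.42.0, limma 3.58.1 on log2(FPKM + 1) and log2(FPKM + 0.1), other scalings, no filter, 2 stages at a time, a replicate block and leaving out each library.

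The labels do not tie replicate numbers to cows, but the study followed the same 6 cows, so numbers were taken as cows in the block. Correlations of same-numbered deviations were 0.106 to 0.687 for Y-E and Y-A, -0.08 to 0.511 for Y-P and Y-A, and -0.09 to 0.514 for Y-P and Y-E. At 30247267 counts or more per library, counting error is small beside the spread between cows for the alpha and beta genes. Of the members, 2 matched the RefSeq gene table by symbol, and no sequences were used.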

Additional observations from a re-analysis of the deposited data

Results flagged for a closer look

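Each value below lies farther from the other 5 libraries of its stage than Dixon's test allows at 95%. Among the 23 sets of 6 libraries searched (6 genes, the hemoglobin share and the chain balance, where they vary), 13 values stood apart. Chance gives about 1 in 20 for values with a normal spread. The values were searched without a log transform, and levels within a stage are skewed to the high side. The 13 can therefore not be set against that rate, and no search on a log scale was made. In 2 of the 13 sets, ENSBGRG00000014886 in Y-E and ENSBGRG00000014765 in Y-P, the other 5 libraries had 0 counts, so any count at all would stand apart. The sets are not independent, since the members share their libraries. All 13 were the highest of their stage.

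Y-E replicate 6 accounted for 7 of them. It held 7984 CPM of the beta gene ENSBGRG00000011277 (next highest Y-E library 439), 81269 CPM of the alpha gene ENSBGRG00000014632 (next 6762), 27.75 CPM of HBM (next 6.29), 4.58 CPM of HBQ1 (next 1.83), 12.6 CPM of ENSBGRG00000014765 (next 0.253) and 0.0921 CPM of ENSBGRG00000014886, where the other Y-E libraries had none. Its hemoglobin share was 8.36%.

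Y-A replicate 6 held 40.0 CPM of ENSBGRG00000014765 (next 1.09) and 0.498 CPM of ENSBGRG00000014886 (next 0.0885), while its alpha and beta genes did not stand apart. Y-P replicate 6 held 236 CPM of the beta gene (next 82.5) and 3221 CPM of the alpha gene (next 1007), with a hemoglobin share of 0.376%. Y-P replicate 2 had 0.0691 CPM of ENSBGRG00000014765, which is 3 counts, where the other Y-P libraries had 0.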

How the results depend on the processing

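Of the log2 fold changes of the 5 tested members over all alternatives, 396 kept their direction and side of the threshold, 24 lost a call, 16 gained one and 1 reversed. In Y-P vs. Y-A, 4 or 5 members were called under every alternative. In Y-E vs. Y-A, where none was called, 1 was called by limma on log2(FPKM + 1), 3 with the replicate block, 3 with the block and without Y-E replicate 6, 4 by DESeq2 without Y-E replicate 6, 2 without Y-A replicate 6 and Y-E replicate 6, and 0 to 3 when 1 library was left out (3 without Y-E replicate 6). In Y-P vs. Y-E, where 4 were called, limma on log2(FPKM + 1) and on log2(FPKM + 0.1) called 2 each, DESeq2 without Y-E replicate 6 called 1, the set without Y-A replicate 6 and Y-E replicate 6 gave 1, and leaving out 1 library gave 1 to 4 (1 without Y-E replicate 6). The cause of these shifts was not tested. DESeq2 without Y-E replicate 6 and the set without both libraries were chosen after seeing the data. With all 18 libraries the replicate block changed no member's call in Y-P vs. Y-A or Y-P vs. Y-E, whereas without Y-E replicate 6 it moved Y-P vs. Y-E from 1 member called to 3. DESeq2 gave no adjusted p for ENSBGRG00000014765, nor, with all 18 libraries, for HBQ1 and HBM in Y-E vs. Y-A.

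Without Y-A replicate 6 the log2 fold change of ENSBGRG00000014765 in Y-E vs. Y-A reversed from -1.70 to 1.89, and leaving out other libraries gave values down to -6.41. Taken over counts instead of FPKM, the alpha to beta ratio had a median of 13.6 for Y-E libraries and of 12.8 for Y-P libraries. Over all genes, library size alone as the scaling moved the median log2 fold change in Y-P vs. Y-A from 0.03 to 0.19 and the calls from 50 higher and 158 lower to 144 and 116, and in Y-P vs. Y-E from 65 and 322 to 137 and 196, while all members stayed lower. The number of genes called in Y-E vs. Y-A ranged from 2 to 73 over the alternatives. Depth limits ENSBGRG00000014886 and, in Y-P, HBM and ENSBGRG00000014765.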
